A study of Mus musculus with 4 samples.

Results

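The mammalian circadian clock is represented here by 10 genes, taken by symbol from the deposited expression tables: the activators Arntl and Clock, the repressors Per1, Per2, Per3, Cry1, Cry2, Nr1d1 and Nr1d2, and the output gene Dbp. Of these, 8 had a row in at least 1 table, out of 19175 genes in all. The table of the stress experiment listed 4 (Per1, Per2, Nr1d1 and Dbp) among 12318 genes, and that of the virus experiment listed 7 (Clock, Per1, Per2, Per3, Cry2, Nr1d2 and Dbp) among 15396 genes. Arntl and Cry1 had no row in either table, and their levels are not analysed here.

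The tissue was prelimbic cortex, part of the medial prefrontal cortex, taken from C57BL/6 mice at 8 weeks of age, and its RNA was sequenced. The control library and the stress-susceptible library both carry the tag of chronic social defeat stress, a procedure of repeated attacks by an aggressor mouse after which susceptible mice avoid contact. The AAV-GFP and AAV-CDYL libraries come from mice given an adeno-associated virus that expresses green fluorescent protein or CDYL, a chromodomain protein that acts as a chromatin corepressor; the sources used here do not give the promoter of the virus. There was 1 library in each of the 4 groups, so no difference below has a replicate check or a test, and the sources used here give neither the number of mice in a library nor the time of day of dissection.

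The clock runs in most cells as a transcriptional loop. CLOCK and ARNTL (also called BMAL1) bind E-box sequences as a dimer and switch on the Per and Cry genes, whose proteins return to block that dimer. In a linked loop the same dimer drives Nr1d1 and Nr1d2, which encode the REV-ERB nuclear receptors, and these repress Arntl through ROR elements; Dbp encodes a transcription factor that binds D-boxes and carries the rhythm to other genes. Levels of Dbp, Nr1d1 and the Per genes therefore vary strongly with time of day, roughly opposite to Arntl, while Clock varies little in most tissues. Per1 and Per2 are in addition induced by neuronal activity through cyclic AMP response elements (CREs), and Per1 by glucocorticoids.

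Promoter sequences of the members were searched for elements of these loops, and binding was not measured. The windows came from RefSeq (build GRCm38.p6, the same assembly as mm10), from 250 bases before to 50 after a transcription start. They were found for 9 of the 10 genes, as 13 windows, but not for Per2. They were searched on both strands for the E-box CACGTG, its variant CACGTT, the D-box TTATGTAA, the ROR elements TAGGTCA and TGGGTCA, the full CRE TGACGTCA, the core TGACG that the full CRE contains, and the glucocorticoid receptor core AGAACA. The windows of 3 genes are shown because their RNA differed in these libraries in different ways: Per1 was lower in both treated libraries, Per3 had a value only in the virus experiment and was lower there, and Nr1d1 was the member that was higher after stress. Sequences run 5′ to 3′ on the gene's strand, and capitals mark E-box, variant E-box and D-box matches.
Per1, chr11:69098699-69098998, plus strand: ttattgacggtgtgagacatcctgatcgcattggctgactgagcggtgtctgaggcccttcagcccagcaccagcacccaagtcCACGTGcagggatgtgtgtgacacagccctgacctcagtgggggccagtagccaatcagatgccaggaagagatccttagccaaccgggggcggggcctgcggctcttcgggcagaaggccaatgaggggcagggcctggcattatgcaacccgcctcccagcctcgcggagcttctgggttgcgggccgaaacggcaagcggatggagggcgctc
Per3, chr4:151044616-151044915, minus strand: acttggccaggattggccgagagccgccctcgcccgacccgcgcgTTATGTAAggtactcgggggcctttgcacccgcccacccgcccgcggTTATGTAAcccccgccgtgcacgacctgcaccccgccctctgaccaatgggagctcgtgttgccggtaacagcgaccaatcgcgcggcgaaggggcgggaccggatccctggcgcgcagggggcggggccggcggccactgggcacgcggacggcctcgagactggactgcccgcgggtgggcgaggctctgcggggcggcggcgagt
Nr1d1, chr11:98775328-98775627, minus strand: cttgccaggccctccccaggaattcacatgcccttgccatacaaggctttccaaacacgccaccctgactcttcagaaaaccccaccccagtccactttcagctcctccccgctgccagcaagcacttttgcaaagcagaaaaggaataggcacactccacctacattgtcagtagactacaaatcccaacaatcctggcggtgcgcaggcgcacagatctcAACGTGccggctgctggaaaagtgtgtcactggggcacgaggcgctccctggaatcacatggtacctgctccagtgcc
The Per1 window shown holds an E-box that begins at position -166 from the start site. It also holds the CRE core, not in capitals, at -246. Another Per1 window, chr11:69099902-69100201, holds no E-box and has the CRE core at -132. The Per3 window holds the D-box at both -205 and -158, and the Nr1d1 window holds the variant E-box at -28.

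Among all 32851 promoter windows, 7.15% held the E-box, 4.68% its variant and 0.938% the D-box. Among the 13 windows of the 9 clock genes, the E-box was found in 2 (Per1 and Cry1), the variant in 3 (Cry1, Cry2 and Nr1d1) and the D-box in 1 (Per3). The ROR element TAGGTCA, present in 2.61% of all windows, was found in 1 of the 13, a window of Arntl, at position 31. TGGGTCA, the full CRE and the glucocorticoid receptor core (3.98%, 1.79% and 19.0% of all windows) were found in 0 of the 13. The CRE core was found in 4 of the 13, of Per1, Cry1 and Cry2, and in 20.8% of all windows. The windows of Clock, Dbp and Nr1d2 held none of these letters, which says nothing about sites elsewhere in those genes.

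**Figure D1:**
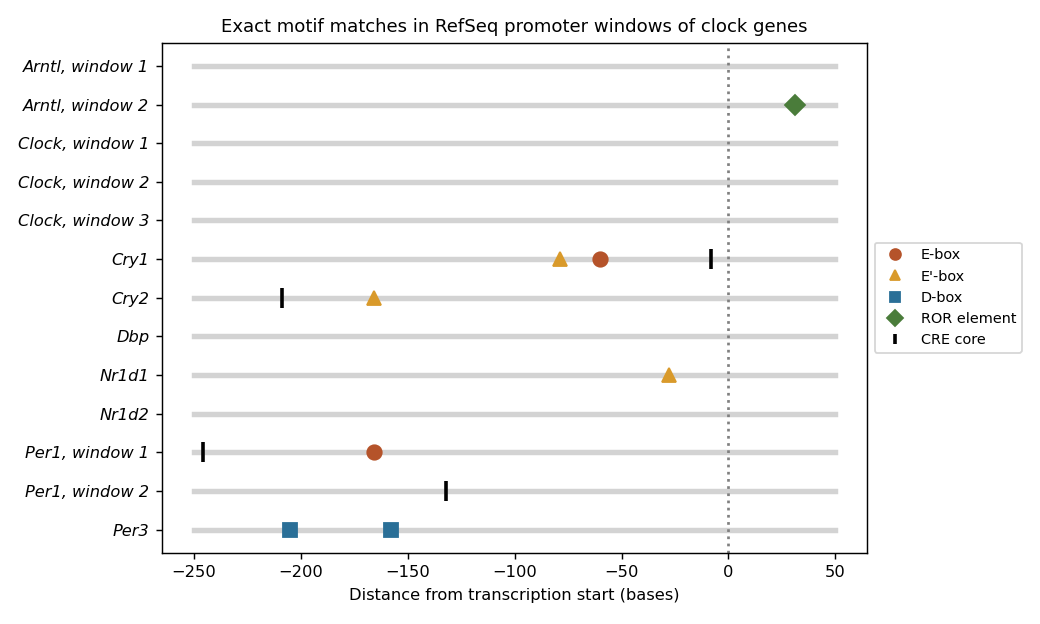
Each grey line is a RefSeq promoter window of a clock gene, drawn by distance from its transcription start in bases, and symbols mark exact motif matches on either strand. Per3 has both of its D-box matches within 250 bases before the start, at -205 and -158, and the E-box matches lie in Per1 and Cry1.

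Values are FPKM, which counts fragments relative to transcript length and library size. Differences are given on the log2(FPKM + 1) scale, which understates those of low genes, and the size rule called genes higher or lower when they reached 1.5-fold and at least 1 library had an FPKM of 1 or more. A gene is said to pass or miss the rule on the FPKM as deposited unless another scaling is named. Both tables list no gene above 0 in both libraries whose values differ by less than 1.25-fold, so a member without a row has no value here and is not thereby shown to be alike. Low FPKM values come in steps of a fragment each, which put effective depth at 14300000 to 24000000 fragments, lowest in control. The counts of all genes were 1006 higher and 575 lower of 5334 after stress (medians of listed genes 0.24 above control), and 2516 higher and 1159 lower of 8047 with CDYL (0.30 above AAV-GFP). Below, all genes means these listed genes at an FPKM of 1 or more, or for q-values all listed genes. Genes without a row do not enter the medians, so centring on them rests on listed genes only. The splits depended on scaling, at 532 and 1918, and 1630 and 3572, when centred on those medians. With a common upper quartile they were 2454 and 215, and 2818 and 831. The virus took effect on its target, with Cdyl at 2.68 FPKM in the AAV-GFP library against 1052 in the AAV-CDYL library.

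In the stress experiment the listed repressors split: the Per genes and the output gene Dbp were lower in the susceptible library than in control, and Nr1d1 was higher, with the sole flip in sign being Dbp when differences were centred on neuron markers (0.13). By the size rule 1 of the 4 members, Per2, was lower, against 10.8% of the 5334 genes, and 0 were higher, against 18.9%. This split turned around with the scaling. With a common upper quartile and when centred on neuron markers 0 were lower and 1, Nr1d1, was higher. The shares of all genes higher were then 43.9% and 52.3%, and lower 3.85% and 2.23%. Centring on all genes made Per1 and Per2 lower, against 36.0% of all genes, and 0 higher, against 9.97%. At any listed size 3 of 4 lay below control, against 47.7% of those genes. The median difference of the 4 was -0.44, while that of the listed genes at FPKM 1 or more was 0.24.

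Per2, which encodes a PER repressor of the core loop (ENSMUSG00000055866, chromosome 1, 91415982 to 91459324), read 10.9 FPKM in control and 6.10 in susceptible. The control value was 1.79 times the susceptible one, with a 95% counting interval of 1.62 to 1.96 from an estimated 908 and 822 fragments. The interval covers counting error only. It takes no account of PCR copies or of the spread between libraries, as each group has 1 library. The difference of -0.74 lay among the lower ones, with 5.44% of the 5334 genes more negative. In the authors' deposited table Per2 has p = 0.0083 and q = 0.742.

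Per1, a PER gene induced rapidly by light, activity and hormones (ENSMUSG00000020893, chromosome 11, 69095217 to 69109960), read 31.7 FPKM in control and 21.2 in susceptible. The ratio of 1.49 (counting interval 1.41 to 1.59) gave a difference of -0.56, just short of the size rule. Dbp, the D-box activator (ENSMUSG00000059824, chromosome 7, 45705247 to 45710203), stood at 38.5 and 30.5, a ratio of 1.26 and a difference of -0.33. In GENCODE M21, Sphk2 on the opposite strand covers 18.0% of the exonic bases of Dbp, and the library kit does not mark strand. Of the Per genes and Dbp, Per2 had the lowest level and the largest difference in this pair.

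Nr1d1, the REV-ERB alpha receptor that represses Arntl (ENSMUSG00000020889, chromosome 11, 98767932 to 98775333), read 31.8 FPKM in control and 41.0 in susceptible. The susceptible value was 1.29 times that of control, a difference of 0.36, short of the size rule. It was past the rule with a common upper quartile (0.68) and when centred on neuron markers (0.82), as 43.9% and 52.3% of all genes were. Centred on all genes it lay at 0.11. Nr1d1 overlaps Thra, a thyroid hormone receptor gene on the opposite strand, over 8.55% of its exonic bases, and Cuffdiff placed both in 1 locus. Thra, at a far higher level, stood at 379 and 480, a ratio of 1.27. Because the library kit does not mark strand, reads in the overlap cannot be assigned to Nr1d1 or Thra with certainty. The part of such reads in the Nr1d1 difference was not tested.

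Ratios between members within a library, which no scaling between libraries alters, show the same split. Nr1d1 and Per1 had nearly the same FPKM in control (ratio 1.00), while Nr1d1 was at 1.93 times Per1 in susceptible. Nr1d1 was at 2.92 times Per2 in control and at 6.72 times in susceptible. The order of levels was Dbp, Nr1d1, Per1, Per2 in control and Nr1d1, Dbp, Per1, Per2 in susceptible; with 1 library a group it cannot be said which neighbours differ beyond their spread.

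**Figure D2:**
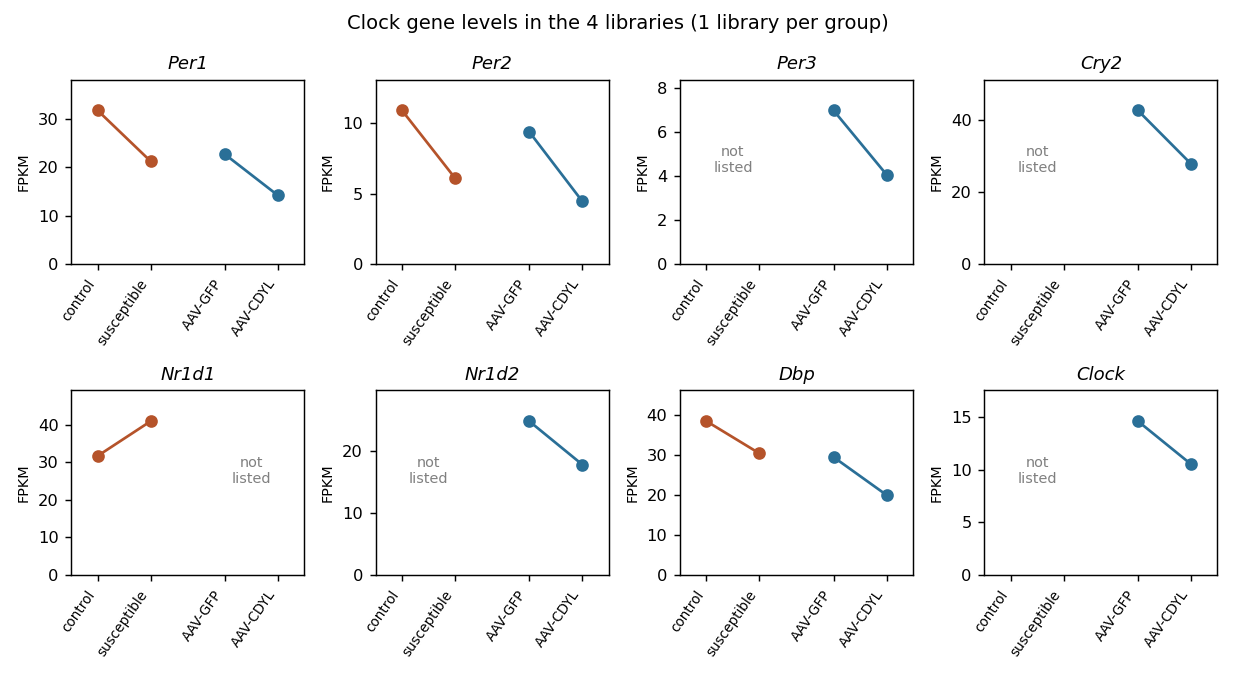
Each panel gives the FPKM of a clock gene, with 1 point per library; lines join the libraries of a pair, and the tables were normalized separately. Per1, Per2 and Dbp are lower in both treated libraries, Nr1d1 is higher in the susceptible library (41.0 against 31.8), and after centring on neuron markers Dbp lies above its comparison library in both pairs and Nr1d2 and Clock in the AAV pair.

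In the virus experiment all 7 listed members, the activator Clock among them, were lower in the AAV-CDYL library than in the AAV-GFP library, except that after centring on neuron markers Clock (0.16), Nr1d2 (0.14) and Dbp (0.06) lay above. By the size rule 4 of the 7 were lower (Per1, Per2, Per3 and Cry2), against 14.4% of the 8047 genes, and 0 were higher, against 31.3%. At any listed size 7 of 7 lay below, against 46.6%. Their median difference was -0.60, while that of the listed genes at FPKM 1 or more was 0.30. With a common upper quartile Per2 and Per3 remained past the size rule, against 10.3% of all genes lower. Centred on all genes all 7 were lower by it, against 44.4%, and centred on neuron markers 0 were, against 0.783%.

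Per2 had the largest difference of the members here too, reading 9.38 FPKM in the AAV-GFP library and 4.46 in the AAV-CDYL library. The AAV-GFP value was 2.10 times the AAV-CDYL value (counting interval 1.91 to 2.31, from an estimated 1240 and 624 fragments), and 2.52% of the 8047 genes had a more negative difference than its -0.93. Per3, the PER paralog that the core loop can do without (ENSMUSG00000028957, chromosome 4, 151003652 to 151044665), stood at 6.99 and 4.07, a ratio of 1.72 (1.55 to 1.90). The Cuffdiff locus of Per3 also holds Vamp3 and Tnfrsf9. Per1 stood at 22.7 and 14.2, a ratio of 1.60.

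Cry2, the cryptochrome that binds and inhibits the activator dimer (ENSMUSG00000068742, chromosome 2, 92403646 to 92434043), was the most abundant member in both AAV libraries, reading 42.7 FPKM in AAV-GFP and 27.9 in AAV-CDYL. The ratio was 1.53 (1.46 to 1.61) and the difference -0.60. Nr1d2, the REV-ERB beta receptor (ENSMUSG00000021775, chromosome 14, 18204054 to 18239127), stood at 24.7 and 17.8, and its difference of -0.46 did not pass the size rule. Dbp stood at 29.5 and 20.02, a ratio of 1.47 and a difference of -0.54, also short of the rule.

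Clock, the activator subunit and the sole listed member of the positive arm (ENSMUSG00000029238, chromosome 5, 76209868 to 76304792), read 14.6 FPKM in AAV-GFP and 10.5 in AAV-CDYL. The ratio was 1.39 (1.29 to 1.49) and the difference -0.44. The Cuffdiff locus of Clock also holds Ube2n-ps1. The mean difference of the repressors and Dbp lay lower than that of Clock by 0.20 on the log2(FPKM + 1) scale. This contrast of the arms rests on 1 gene against 6, and the stress table, which lists no member of the positive arm, allows no such contrast. Clock shared the sign of the repressors before centring on neuron markers, with the smallest difference of the 7, next to that of Nr1d2.

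The order of levels was the same in both AAV libraries: Cry2, Dbp, Nr1d2, Per1, Clock, Per2, Per3. Within them Per2 stood at 0.643 times the FPKM of Clock with AAV-GFP and 0.424 times with AAV-CDYL, and Cry2 at 2.92 and 2.65 times. Per1 stood at 2.42 times Per2 with AAV-GFP and 3.18 times with AAV-CDYL, and at 2.91 and 3.48 times in control and susceptible. No member has q under 0.05 in either of the authors' deposited tables, where the share of all genes with such a q is 0.333% for stress and 0.955% for the virus; Per2 has p = 0.0654 in the latter.

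Per1, Per2 and Dbp were the members listed in both tables, and the pairs share no library. All 3 were lower in both treated libraries before centring on neuron markers, where Dbp lay above in both, and in each pair their order by size of difference was Per2, Per1, Dbp. Their levels were also lower in AAV-GFP than in control, with control at 1.40 times AAV-GFP for Per1, 1.16 times for Per2 and 1.30 times for Dbp. The tables were normalized separately, but across 2706 genes with at least 1 FPKM in control and in AAV-GFP the median log2 ratio of AAV-GFP to control was 0.01, with quartiles of -0.18 and 0.22.

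Beyond the 10 genes, 33 further clock genes were considered in 5 lists, of which 10 were at FPKM 1 or more in the stress table and 19 in the virus table. After stress 0 of the 10 were higher, against 18.9% of all genes, and 0 lower by the size rule, against 10.8%. At any size 5 lay above control and 5 below (median -0.07). That depended on scaling. When centred on all genes at FPKM 1 or more 5 of the 10 were lower by the rule, against 36.0% of all genes (median -0.31). With upper quartile scaling 4 were higher, against 43.9% (median 0.21). Centred on neuron markers 5 were higher, against 52.3% (median 0.39, 8 above and 2 below). With CDYL 3 of the 19 were higher, against 31.3% of all genes, and 6 lower, against 14.4% (median -0.43). At any size 15 lay below, against 46.6%, or 6 after centring on neuron markers. Here 0 were higher, against 20.3%, and 15 lower, against 44.4%, when centred on all genes (median -0.73). With upper quartile scaling 3 were higher, against 34.8%, and 4 lower, against 10.3% (median -0.36). Centred on neuron markers 4 were higher, against 53.4%, and 0 lower, against 0.783% (median 0.16). The median over the listed genes at FPKM 1 or more was 0.24 after stress and 0.30 with CDYL.

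Of the 5 output genes listed with CDYL, 3 were lower by the size rule, against 14.4% of all genes, and Nampt lay on the other side. Tef and Hlf, which encode the other D-box activators of the PAR family, stood at 114 and 64.5 FPKM and at 43.1 and 22.8 FPKM in AAV-GFP and AAV-CDYL. Wee1, a cell cycle kinase gene under E-box control, stood at 10.4 and 5.41. These 3 were the lower ones, and after centring on neuron markers they lay below AAV-GFP without passing the rule. Of the others, Nampt, which encodes an enzyme of NAD synthesis, stood at 13.6 and 18.6, a difference of 0.43 that passed the rule as higher when centred on neuron markers (1.02). In the stress table Hlf stood at 62.5 and 44.4 and Wee1 at 10.2 and 7.64, with differences of -0.48 and -0.38.

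The other repressors did not share 1 direction with CDYL. Bhlhe40, an E-box repressor also known as DEC1, was lower (53.0 and 27.7 FPKM), while its paralog Bhlhe41 (3.83 and 7.42), the D-box repressor gene Nfil3 (5.13 and 8.54) and the replication fork gene Timeless (1.40 and 2.62) were higher. Centring on neuron markers left Bhlhe40 below without its call (-0.31) and these 3 higher. Centring on all genes left Bhlhe40 lower and took the call from all 3, at 0.50 for Bhlhe41, 0.34 for Nfil3 and 0.29 for Timeless. Under the scalings tried Nfil3 lay above AAV-GFP and Tef and Hlf, which encode activators at the same D-boxes, below.

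Among activators, Npas2, which can stand in for Clock in the forebrain, was lower with CDYL (16.7 and 10.6 FPKM), as the kinase gene Gsk3b was (55.9 and 36.5); both lost the size rule's call with a common upper quartile and when centred on neuron markers. Rora, a receptor that activates Arntl through the ROR element, stood at 5.77 and 3.87. The nuclear corepressor gene Ncor1, which REV-ERB recruits, stood at 106 and 77.8. Neither of these passed the rule, though both were lower by it when centred on all genes (-0.78 and -0.74) and lay above AAV-GFP when centred on neuron markers (0.12 and 0.16).

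**Figure D3:**
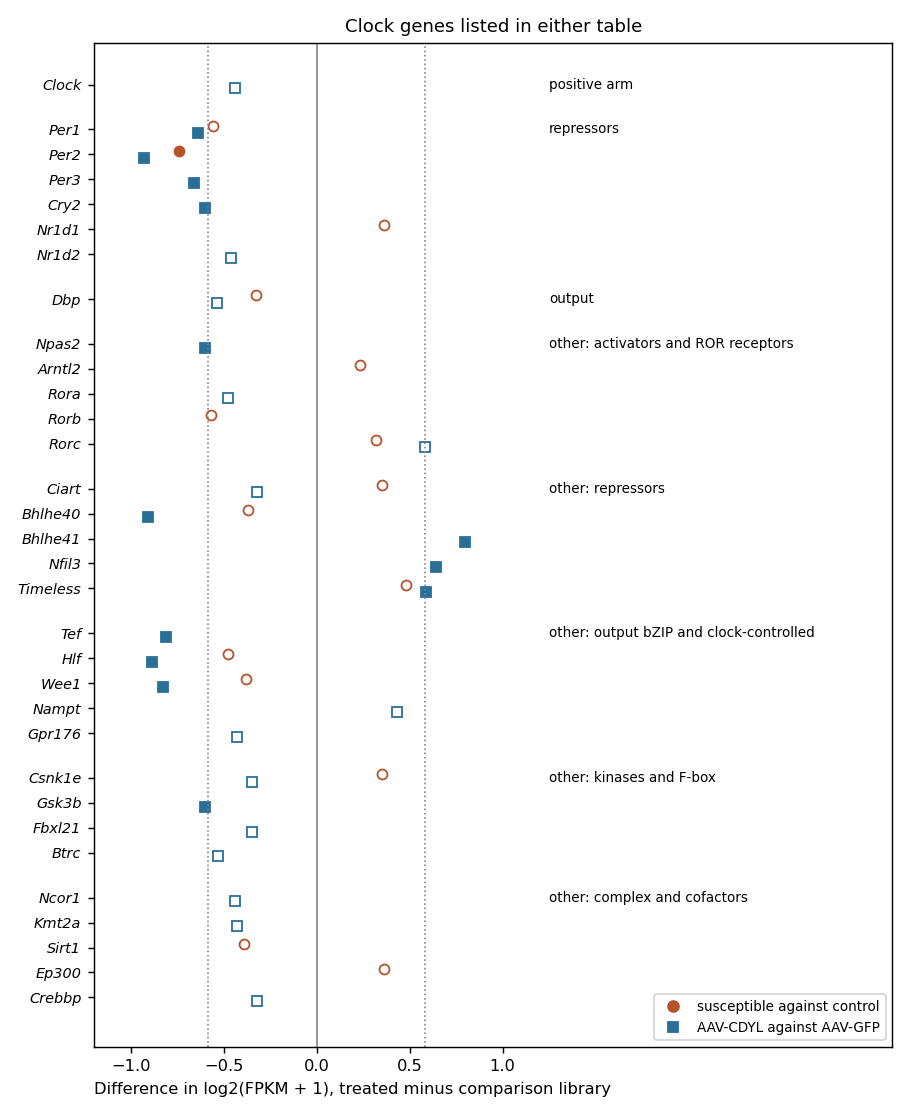
Points give the difference in log2(FPKM + 1), treated minus comparison library, for the clock genes considered that have a row in either table; circles are the stress pair, squares the AAV pair, filled where the 1.5-fold rule (dotted lines) was passed. In the stress pair the sole filled circle is Per2, and in the AAV pair the filled squares on the left include Per1, Per2, Per3 and Cry2, none of which keeps the rule after centring on neuron markers.

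The neuron markers that had a row were also lower in both treated libraries. In bulk tissue fewer cells of a type and less RNA per cell cannot be told apart. Of 15 neuron markers 13 were listed in the virus table and all 13 lay below AAV-GFP, 8 by the size rule, against 14.4% of all genes. Their median was -0.60, the same as for the clock members, with a summed level of 5424 FPKM in AAV-GFP and 3549 in AAV-CDYL. After stress 8 of the 15 were listed, all below control and 2 by the rule, against 10.8% of all genes (median -0.46, sums 2530 and 1826). Rbfox3, Snap25, Slc17a7, Camk2a, Gad2, Slc12a5 and Thy1 had no row there. The centre on neuron markers after stress thus rests on the 8 that differed by at least 1.25-fold. With a common upper quartile 7 of the 8 lay below control and 1 was lower by the rule, against 3.85% of all genes. Centred on all genes 7 were lower by it, against 36.0%. Examples with CDYL are the synaptic vesicle gene Syt1 (591 and 327) and Snap25 (1492 and 988). Centred on those medians, the 7 clock members of the AAV pair lay between -0.33 (Per2) and 0.16, with 0 past the size rule, where 0.783% of all genes were lower. In the stress pair Per2 then lay at -0.29 and Nr1d1 at 0.82, past the rule for higher genes as 52.3% of all genes were.

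Markers of other cell types that had a row lay mostly on the other side. By the rule 18.9% of all genes were higher and 10.8% lower after stress, and 31.3% and 14.4% with CDYL. Of 14 oligodendrocyte markers 13 were listed after stress with 10 higher (sums 649 and 1638 FPKM), and 14 with CDYL, all higher (702 and 2660). Of 12 microglia and leukocyte markers 7 were listed after stress, with 2 higher and 1 lower (163 and 189). With CDYL all 12 were listed, with 11 higher (167 and 1380), and Cd3g and Nkg7 were at 0 in AAV-GFP. Of 12 astrocyte markers 6 were listed after stress with 3 higher (402 and 666). With CDYL 8 were listed with 6 higher and 1 lower (226 and 729). Of 9 endothelial markers 7 were listed after stress with 5 higher (80.9 and 228), and 6 with CDYL with 3 higher (89.9 and 170). Centred on all genes, 9.97% of all genes were higher and 36.0% lower after stress, and 20.3% and 44.4% with CDYL. After stress the counts higher then fell to 2 with 1 lower for astrocyte and 2 for endothelial markers. Microglia and leukocyte markers were higher for 1 and lower for 3. With CDYL the counts higher fell to 3 with 1 lower for astrocyte and 2 with 1 lower for endothelial markers. The part of cell composition in the clock differences was not tested.

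Lists of the other inputs to Per genes are given beside them. Immediate early genes mark neuronal activity. After stress 10 of 15 listed were lower, against 10.8% of all genes (median -0.93, sums 476 and 219 FPKM). With CDYL 8 of 13 listed were lower, against 14.4% (median -0.64, sums 348 and 218). By the rule 0 were higher in either pair, against 18.9% and 31.3%, or 1 with CDYL under a common upper quartile. Centred on neuron markers, 7 of 15 were lower by the rule after stress, against 2.23% of all genes (12 below at any size). With CDYL 1 of 13 was lower, against 0.783%, and 2 were higher, against 53.4% (8 below at any size, median -0.04). Of 14 glucocorticoid-responsive genes 8 were listed after stress, and all 8 were higher, against 18.9% of all genes (median 1.47, sums 53.9 and 139). Sgk1, Tsc22d3, Zbtb16, Mertk, Klf9 and Errfi1 had no row there. With CDYL 9 were listed, with 3 higher and 1 lower, against 31.3% and 14.4% of all genes (median 0.41). With CDYL 7 were higher and 0 lower when centred on neuron markers (median 1.01), against 53.4% and 0.783% of all genes. Centred on all genes 1 was higher and 2 lower (median 0.12), against 20.3% and 44.4%. Among them Fkbp5, a chaperone gene induced by glucocorticoids, stood at 11.8 and 35.0 in control and susceptible, while Per1, also a glucocorticoid target, lay below control. The part of either input in the Per1 and Per2 differences was not tested.

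**Figure D4:**
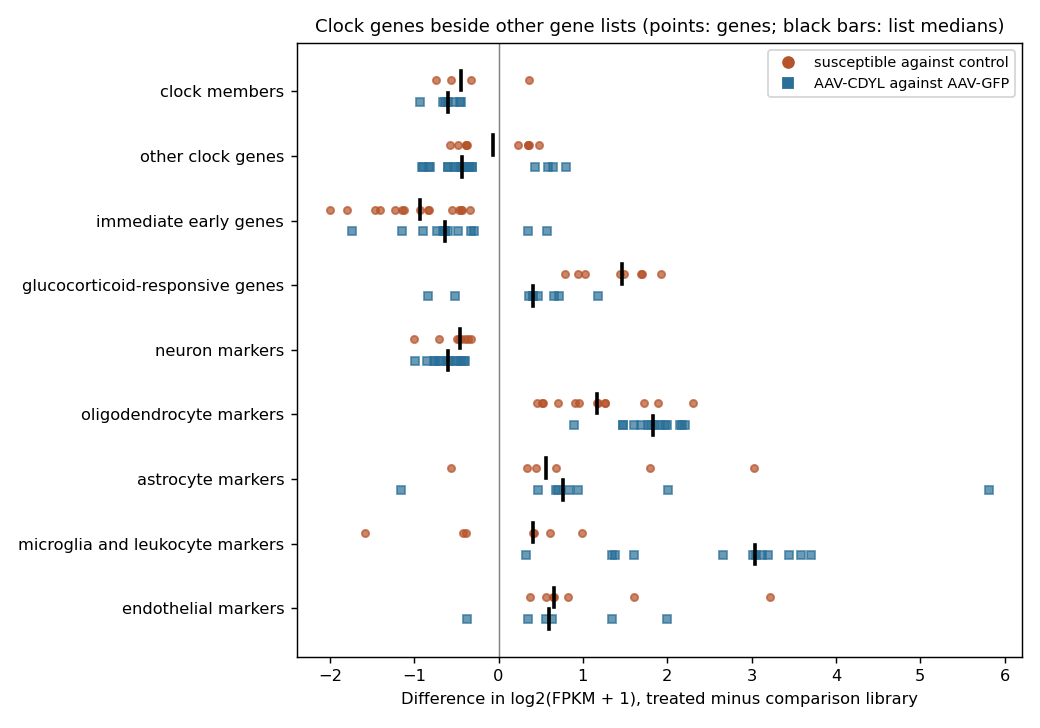
Points give each listed gene's difference in log2(FPKM + 1), treated minus comparison library, at an FPKM of 1 or more, for clock genes and for lists of input genes and cell type markers; black bars are medians. In the AAV pair the clock members and the neuron markers share a median of -0.60, so that centring on the latter puts 3 of the 7 members above 0, and oligodendrocyte markers lie on the other side of 0.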

How the data were processed

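RNA was measured in 4 libraries in 4 groups. The authors deposited 1 table of FPKM values per experiment, made with Cuffdiff on mm10, per the submitters' processing notes; the sources used here name no aligner, annotation or version. The p-values and q-values are the authors' own, of 1 column against another, and the fold change column deposited by the authors, which holds other values such as infinities, was not used. The column Susceptile was matched to the susceptible library, and 0 per-sample columns were left unmapped. Libraries were made from total RNA with a NEBNext Ultra kit, per the labels' protocols. GENCODE M21 (same build) gave transcript lengths and overlaps. Depth came from genes with 1 transcript of 3 to 20 kb: in every library 92.5% or more of the values below 4.5 steps were whole to within 0.15. Estimated fragments of a gene use its principal transcript and ignore fragment length, and intervals (95%) are Poisson on the log ratio. The size rule, depth estimate and motif search were tested on simulated data. The members and lists were chosen with earlier results of these data known. A gene of the wider clock lists is not reported here and was left out of their counts. All 10 members are named; other clock genes were named up to 4 per list, and of other lists only examples are given. Alternatives were a 2-fold rule, a floor of 5 or none, pseudocounts of 0.1 and 0.5, centring on the median of genes or of neuron markers, upper quartile scaling and, chosen after seeing the data, FPKM ratios and leaving out members in shared loci. Python 3.11.15, numpy 2.4.6, pandas 2.3.3 and matplotlib 3.10.9 were used.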

Additional observations from a re-analysis of the deposited data

How the results depend on the processing

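No paired analysis was possible because each group has 1 library. Under the 2-fold rule the count of lower members went from 1 to 0 after stress and from 4 to 0 with CDYL. Centring on the median of listed genes made these 2 and 7, against 36.0% and 44.4% of all genes lower. A common upper quartile raised the susceptible library by 0.33 and the AAV-CDYL library by 0.08 on the log2 scale. It put the median of listed genes at FPKM 1 or more at 0.48 and 0.36. The lower counts became 0 and 2, against 3.85% and 10.3% of all genes, with 1 member (Nr1d1) higher after stress, against 43.9%. Centring on neuron markers made both 0, again with Nr1d1 the 1 higher member, and turned Dbp after stress (0.13) and Dbp (0.06), Nr1d2 (0.14) and Clock (0.16) with CDYL to positive. Pseudocounts of 0.1 and 0.5, other floors, FPKM ratios and leaving out members in shared loci kept each count within 1.5 times. Clock minus the mean of the other 6 members stayed between 0.20 and 0.22 over the pseudocounts, upper quartile scaling and FPKM ratios. Scaling a library nearly cancels in this contrast, and pseudocounts change little at these levels. These settings therefore could hardly alter it, and they do not show that it would hold in other libraries. Of 66 recomputed member differences, 38 moved by less than counting error, 24 by more without a change of sign, and 4 changed sign. Each pseudocount gave 11 of the 38, FPKM ratios 10 and upper quartile scaling 6. Upper quartile scaling moved 5 by more, and centring on all genes moved 11 by more. Centring on neuron markers moved 7 by more and changed the sign of 4. The counting intervals printed cover depth alone, and the spread between mice is unknown.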

Other observations

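Ciart and Csnk1e had opposite signs in the experiments on the deposited scale, but not when centred on neuron markers. Ciart, which encodes a repressor of the activator dimer, stood at 8.85 and 11.6 FPKM in control and susceptible and at 6.43 and 4.94 with AAV-GFP and AAV-CDYL. Csnk1e, a casein kinase gene whose product marks PER proteins for degradation, stood at 55.7 and 71.4 and at 84.5 and 66.0. None of these 4 differences passed the size rule on the deposited scale. Centred on neuron markers, Ciart lay at 0.81 after stress and 0.27 with CDYL and Csnk1e at 0.81 and 0.24, the stress values past the rule, as they were with upper quartile scaling (0.66 and 0.68). Centred on all genes, both were lower by the rule with CDYL (-0.62 and -0.65). Both genes share their Cuffdiff locus with other listed genes, and the difference between the experiments was not tested.

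Fbxl21, an F-box gene, had a value in the virus table alone, 2.08 FPKM in the AAV-GFP library against 1.41 in the AAV-CDYL library. Rorb, which encodes a ROR receptor, stood at 3.45 and 2.003 in control and susceptible, and the deacetylase gene Sirt1 at 4.21 and 2.98, neither past the size rule on the log2(FPKM + 1) scale unless centred on all genes (-0.81 and -0.63); centred on neuron markers Sirt1 lay above control (0.07).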
